A study of Mus musculus with 29 samples.

Results

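F-box, tripartite motif (TRIM) and Kelch-like (KLHL) genes code mostly for the parts of ubiquitin ligases that choose the substrate. They were examined here in the tibialis anterior (TA), a fast muscle of the lower leg, of young and old mice. Members were all gene symbols that begin with Fbxo, Fbxl, Fbxw, Trim or Klhl followed by a number and at most 1 further letter, without the 6 symbols Fbxo32, Fbxo30, Fbxo40, Fbxo21, Trim63 and Trim32. The rule used names only and left 169 of the 22537 symbols of the count table, which were 33 Fbxo, 18 Fbxl and 21 Fbxw genes (72 F-box genes together), 63 Trim genes and 34 Klhl genes.

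An F-box protein binds Skp1 and through it the scaffold cullin 1, and its other domain holds the substrate. Leucine-rich repeats name the Fbxl class, WD40 repeats the Fbxw class, and the Fbxo class has other domains. KLHL proteins use a BTB domain to bind cullin 3 and a Kelch propeller to hold the substrate. TRIM proteins carry a RING domain, B-boxes and a coiled coil, and most act as ligases without a cullin. Muscle makes several members that hardly occur elsewhere, among them the MuRF proteins of the sarcomere and KLHL proteins of the contractile apparatus, and a branch of the TRIM family is induced by interferon.

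Male C57BL/6 mice without any genetic change or treatment came from the aging colony of the National Institute on Aging and were 6m (adult), 24m (older adult) or 28m (elderly, labelled as 28 months or older) of age. All had been put through tests of physical function before tissue collection. Poly-A RNA of the TA was sequenced from 7 mice at 6m and 7 at 24m in a first run, and from 8 mice at 28m in a second run, for which the 7 mice at 6m were prepared and sequenced again. Each old group was compared with the 6m libraries of its own run, so the groups at 24m and 28m share their control mice but not their control libraries. Total counts were between 17633475 and 33499162 per library (median 24250878, 29 libraries), of which members held between 0.332% and 0.455%. Expression is given as CPM (counts relative to the library total) after TMM scaling, which corrects totals for a few very abundant genes, over all libraries. A level of 3 counts, taken as the floor, was between 0.0896 and 0.170 CPM by library totals without that scaling.

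Some libraries stood apart and bear on the values below. In 24m replicate 4 and in the first-run library of 6m replicate 4, many members lay far from the other mice of the group. The 6m replicate 4 library of the second run did not, and the median absolute log2 difference between the paired libraries of a mouse was 0.298 for replicate 4 and between 0.0768 and 0.0969 for the other 6 mice (113 members tested). Fibre markers (Acta1, Ckm, Myh4, Myh1, Tnnt3 and Pvalb) summed to between 101900 and 173000 CPM over the libraries. At 28m, 4 of 5 endothelial markers were lower (summed level 319.5 to 345.6 CPM at 6m and 156.1 to 256.7 CPM at 28m), 3 of 5 fibroblast markers were lower (528.6 to 2784 and 312.8 to 1096 CPM), 5 of 7 interferon-response genes were higher (36.06 to 53.5 and 42.28 to 128 CPM) and 5 of 6 denervation genes were higher (34.72 to 63.18 and 77.98 to 455.6 CPM). Slow-fibre genes counted 2 higher of 4 (32.44 to 83.57 and 52.46 to 129.4 CPM), and the fibre markers above 1 lower and 2 higher of 6. None of 4 tested immune markers (52.98 to 146.4 and 55.99 to 138.1 CPM) and 5 adipocyte markers (14.39 to 51.8 and 9.682 to 168.6 CPM) passed the test, and 1 of 5 Schwann cell and nerve markers and 1 of 4 tendon markers were higher. At 24m, no marker was called, and the summed levels reached 875.7 CPM for denervation and 392.3 CPM for slow-fibre genes, where the 6m libraries of that run reached 62.23 and 90.35 CPM. Of 2 erythrocyte markers in the table, Hba-a1 was at 0 in every library, and the summed level was between 3.718 and 39.99 CPM over all libraries. In whole muscle, fewer cells of a type and less RNA per cell cannot be told apart, and the part of these shifts in the results for members was not tested.

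Promoter sequences are shown first for some members whose promoters held an interferon motif or a CArG or MEF2 site, because the interferon-induced TRIM genes and the muscle members are described as groups below. RefSeq windows on GRCm38.p6 run from 250 bases before to 50 bases after the annotated start and were at hand for 131 of the 169 members and for 90 of the 115 members tested at 28m. In all, 9 motifs, chosen after the values were seen, were searched on both strands. The core of the interferon-stimulated response element (GAAA, any 2 bases and GAAA again) was found in 3.99% of the 27025 promoters of all genes, in 12 of the 90 tested members (13.3%) and in 7 of the 10 tested interferon-induced or antiviral TRIM genes that had a window (70.0%). The windows of those 7, written 5′ to 3′ on the strand of the gene over 30 bases with the match in capitals, read as follows.
Trim12a (chr7:104315466-104315495, minus strand): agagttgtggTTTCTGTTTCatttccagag
Trim12c (chr7:104353359-104353388, minus strand): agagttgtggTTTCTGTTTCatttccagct
Trim21 (chr7:102565447-102565476, minus strand): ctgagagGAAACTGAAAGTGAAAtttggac
Trim26 (chr17:36836979-36837008, plus strand): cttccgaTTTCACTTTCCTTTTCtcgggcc
Trim30a (chr7:104465210-104465239, minus strand): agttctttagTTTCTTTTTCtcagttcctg
Trim30d (chr7:104507871-104507900, minus strand): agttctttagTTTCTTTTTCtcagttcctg
Trim34a (chr7:104244457-104244486, plus strand): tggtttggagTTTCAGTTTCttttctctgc

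The stretches of Trim30a and Trim30d were the same base for base, and Trim21 and Trim26 each held 2 overlapping matches. Of the other tested members, Fbxl15, Fbxo36, Fbxo7, Klhl22 and Trim2 held the core. Fbxo36 and Fbxo7 are shown because they were higher at 28m.
Fbxo36 (chr1:84839742-84839771, plus strand): aagttaaaagGAAAAAGAAAaaaaaaaaac
Fbxo7 (chr10:86021964-86021993, plus strand): agctccttgcTTTCGGTTTCttcccggggc

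Of the 27 lower and 14 higher members at 28m that had a window, 1 (Trim2) and 3 (Fbxo36, Fbxo7 and Trim12a) held it. A CArG box, the motif of serum response factor, stood in 1.81% of all promoters and in 1 member, Fbxl22, and a site of the muscle factor MEF2 in 0.636% of all promoters and in 1 member, Klhl33. Both are muscle members. For Fbxl22, the member with the largest rise at 28m among those tested by edgeR, the 250 bases before the start are shown with the CArG box in capitals, and for Klhl33 the 30 bases around the MEF2 site.
Fbxl22 (chr9:66514594-66514843, minus strand): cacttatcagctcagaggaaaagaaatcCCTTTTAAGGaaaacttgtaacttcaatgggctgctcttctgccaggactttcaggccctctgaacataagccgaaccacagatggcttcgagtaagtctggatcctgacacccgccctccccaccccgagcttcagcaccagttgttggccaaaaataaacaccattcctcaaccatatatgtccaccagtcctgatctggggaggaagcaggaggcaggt
Klhl33 (chr14:50897514-50897543, minus strand): ctcaggctagCTATAATTAGccaagtgcgg

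The box of Fbxl22 ended 212 bases before the start. The GC box (GGGCGG) was present in 64 of the 90 tested members (71.1%) and 38.2% of all promoters, with 20 of 27 lower members (74.1%) and 10 of 14 higher members (71.4%) holding it. The myogenic E-box CAGCTG stood in 25 of the 90 (27.8%) and 18.3% of all promoters. These matches are descriptions of the letters in the windows.

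At 6m, members covered a wide range of levels. Per kb of exonic length, the most abundant were Trim54 (MuRF3, a sarcomere and microtubule protein) with 338 CPM per kb, Trim72 (MG53, which seals tears in the fibre membrane) with 104, Klhl31 (needed for sarcomere structure) with 63.6 and Klhl21 (which with cullin 3 acts on Aurora B in dividing cells) with 59.8 CPM per kb (means of the 7 libraries of the second run). The 2 leading genes of each F-box class, as far as they are reported, were Fbxo31 with 38.2, Fbxw5 with 31.7, Fbxl17 with 29.8, Fbxo3 with 18.7 and Fbxw11 (beta-TrCP2, which recognises phosphorylated beta-catenin) with 16.9 CPM per kb. Family medians over tested members lay between 1.72 CPM per kb (Fbxl) and 6.68 CPM per kb (Fbxw), so that the top Trim and Klhl genes stood far above most of their relatives.

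In the comparison of 28m with 6m, 115 members passed the filter on low counts and 54 did not. The untested 54 reached at most 48 counts in a library and a mean of at most 0.55 CPM in any age group. Of all 169, 6 were at 0 counts in every library and 32 had at most 3 counts in every library. Of the 13 members with names from Fbxw13 to Fbxw28, 12 were untested with at most 1 count in any library, and Fbxw17 was tested. Klhl40 and Klhl41, which stabilise thin filament proteins in muscle, are listed in the table under the older names Kbtbd5 and Kbtbd10 and fell outside the naming rule. Kbtbd5 was higher at 28m (log2 fold change 0.50, SE 0.11, adjusted p = 0.0025), and so was Kbtbd10 (0.40, SE 0.096, adjusted p = 0.0040).

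Of the Klhl members, by the naming rule, that passed the test at 28m all but 1 were lower in TA, and F-box members passed it in both directions. Tested with the quasi-likelihood method of edgeR and adjusted after Benjamini and Hochberg (12994 genes), 35 of the 115 tested members were lower (30.4%, against 22.9% of all genes) and 17 were higher (14.8%, against 24.3% of all genes). The median log2 fold change was -0.14 over members and 0.01 over all genes. In the Klhl family 13 of 29 were lower and 1, Klhl5, was higher, with a median of -0.37 and a negative value in 25 of 29. Against the first-run 6m libraries, 3 of the 29 were lower (10.3%, against 11.0% of all genes) and 1 was higher (3.45%, against 12%). Among Trim genes 11 of 39 were lower and 2, Trim12a and Trim68, were higher, with a median of -0.12. Fbxo genes counted 5 lower and 8 higher of 23, Fbxl genes 5 and 4 of 16, and Fbxw genes 1 and 2 of 8, with medians of 0.08, 0.11 and 0.08. Against the first-run 6m libraries, Trim genes counted 3 lower (7.9%, against 11.0% of all genes) and 1 higher (2.63%, against 12%) of 38. In that fit Fbxo genes counted 2 lower and 3 higher of 24, Fbxl genes 2 and 4 of 16, and Fbxw genes 1 and 2 of 8. No family was tested as a set.

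**Figure D1:**
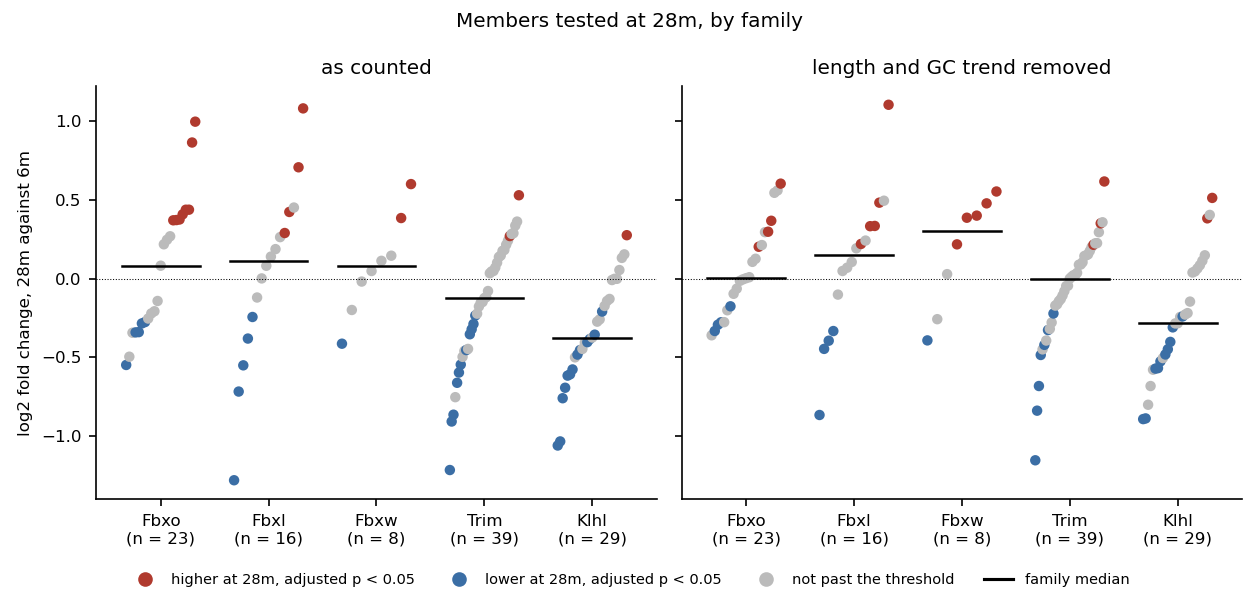
Log2 fold change at 28m against 6m (y axis) of each tested member by family (x axis), as fitted in the left panel and with the trend of gene length and GC content removed from each library in the right panel. Red and blue points passed adjusted p 0.05 upward and downward, grey points did not, and black lines mark family medians. The Klhl median sits lowest in both panels, at -0.37 and -0.28.

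With the study's limits for a differentially expressed gene (adjusted p below 0.05, and a log2 fold change of 1 or more in size), 4 members were lower (Fbxl18, Trim14, Klhl3 and Klhl28, against 3.37% of all genes) and 1 was higher (Fbxl22, against 2.33%). By these limits 1 member was lower with a trend of gene length and GC content removed (against 2.06% of all genes), 0 with the first-run 6m libraries (1.44%) and 6 by DESeq2 (2.84%), and 1, 1 and 3 were higher (1.79%, 1.52% and 2.89%). DESeq2, which was run without the filter, put 3 members past these limits that edgeR did not test, all on few counts. They were Fbxo48 (log2 -2.58, adjusted p = 0.0029, at most 6 counts in a 6m and 2 in a 28m library), Trim9 (log2 -2.51, adjusted p = 0.047, at most 3 and 1) and Fbxl13 (log2 1.19, adjusted p = 0.037, at most 6 and 14). In 9 members all 28m mice lay below all 6m mice (Trim65, Fbxo34, Klhl24, Fbxl17, Trim55, Trim33, Trim56, Fbxl18 and Klhl18, against 6.66% of all genes), and in 1, Fbxo25, all lay above (against 5.65%). Of the 52 calls, 25 of 35 lower and 15 of 17 higher ones held in each of 15 fits that left out 1 mouse. Against the first-run libraries of the same 6m mice, all 52 kept their sign, but 11 of the 35 and 11 of the 17 passed the test. The share of all genes called fell likewise, to 11.0% lower and 12% higher. Without the library of 6m replicate 4 that comparison called 25 lower and 13 higher members (against 17.8% and 19.1% of all genes).

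Fbxl22, a muscle F-box protein of the Z-disc that promotes turnover of alpha-actinin and filamin C, rose most among members that passed the filter. It lies at chr9:66508459-66514593 (GRCm38, minus strand). Its level was between 3.02 and 7.46 CPM at 6m (median 4.24, n = 7) and between 4.82 and 12.3 CPM at 28m (median 9.89, n = 8). Of the 8 old mice, 6 lay above every young mouse, and replicates 1 and 8 lay within the young range. The fitted rise was 2.12-fold (log2 1.08, SE 0.22, adjusted p = 0.0018 by edgeR), from a mean of 4.37 ± 1.48 to 9.24 ± 2.73 CPM (SD), and all 15 fits without 1 mouse kept it.

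Fbxo5 (Emi1, an inhibitor of the anaphase-promoting complex) was between 0.31 and 0.508 CPM at 6m and between 0.379 and 1.56 CPM at 28m, with medians of 0.456 and 0.691 CPM. These are 6 to 13 and 9 to 43 counts per library. Replicates 5 and 7 held the highest values, 1.52 and 1.56 CPM, and 3 old mice overlapped the young ones. The call (log2 0.9985, SE 0.34, adjusted p = 0.024 by edgeR) was lost without replicate 5 or without replicate 7 of 28m, with an adjusted p of at most 0.051. It was also lost with the trend of length removed (log2 0.55, adjusted p = 0.12) and against the first-run 6m libraries (log2 0.42, adjusted p = 0.36).

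The next rises were smaller. Fbxo36 was between 1.17 and 2.34 CPM at 6m (median 1.96) and between 2.02 and 6.1 CPM at 28m (median 2.73), and 4 of 8 old mice lay above all young ones (log2 0.87, SE 0.25, adjusted p = 0.012 by edgeR). Fbxl8 was between 0.365 and 1.14 CPM at 6m (median 1.01) and between 0.997 and 1.98 CPM at 28m (median 1.42), with 7 of 8 old mice above (log2 0.71, SE 0.21, adjusted p = 0.014). Fbxw9 was between 1.71 and 2.73 CPM (median 2.08) and between 2.64 and 4.17 CPM (median 3.09), with 6 of 8 above (log2 0.60, SE 0.15, adjusted p = 0.0053). Replicates 5 and 7 were among the higher old mice in these genes, but the top value of Fbxo36 and of Fbxl8 belonged to replicate 6.

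Further down the order stood Trim12a, a mouse gene of the TRIM5 cluster on chromosome 7 (log2 0.53, SE 0.16, adjusted p = 0.012), Fbxo44 of the sugar-binding F-box branch (0.44, SE 0.11, adjusted p = 0.0061), Fbxo4, a cyclin D1 receptor (0.44, SE 0.14, adjusted p = 0.016), Fbxl6 (0.42, SE 0.10, adjusted p = 0.0038) and Fbxo7, a partner of parkin in the removal of mitochondria (0.41, SE 0.089, adjusted p = 0.0023). In Trim12a, Fbxo44, Fbxl6 and Fbxo7, 7 of 8 old mice lay above all young ones, and in Fbxo4 6 of 8 did. The related gene Trim12c did not pass (0.24, SE 0.15, adjusted p = 0.20), and how reads were divided between Trim12a and Trim12c is uncertain.

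Among members that passed the filter, the largest fall was that of Fbxl18 (chr5:142866946-142895421), an F-box protein known to target another member, Fbxl7. At 6m it was between 5.06 and 6.86 CPM (median 5.87), and at 28m between 0.623 and 4.94 CPM (median 1.83). Every old mouse lay below every young one, but the old mice were split, with replicates 3, 5 and 7 below 1 CPM and replicates 4, 6 and 8 above 4 CPM. The fall was 2.43-fold (log2 -1.28, SE 0.38, adjusted p = 0.012 by edgeR), and it did not pass against the first-run 6m libraries (log2 -0.94, adjusted p = 0.11). Fbxl7, which acts on Aurora A, was lower as well (1.90 ± 0.40 to 1.15 ± 0.24 CPM, log2 -0.72, SE 0.17, adjusted p = 0.0043).

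Trim14, an adaptor of antiviral signalling at mitochondria, was between 0.483 and 0.981 CPM at 6m (median 0.723) and between 0.0479 and 0.582 CPM at 28m (median 0.329). In counts this was 10 to 23 and 1 to 14 per library, so the fold change (log2 -1.22, SE 0.32, adjusted p = 0.0072) rests on few reads, and 38% of its exonic bases overlap other genes, Nans among them, with a strand setting of the counting that is not stated. Klhl3, the cullin 3 adaptor that marks WNK kinases, was between 0.684 and 1.14 CPM (median 0.975) and between 0.112 and 0.938 CPM (median 0.296). Its call (log2 -1.06, SE 0.38, adjusted p = 0.031) was lost in 7 of the 15 fits without 1 mouse (28m replicates 1, 2, 3 and 7 and 6m replicates 1, 4 and 6), with an adjusted p of at most 0.056. Klhl28 was between 6.11 and 7.62 CPM (median 7.00) and between 0.943 and 7.25 CPM (median 2.94), with 7 of 8 old mice below (log2 -1.04, SE 0.33, adjusted p = 0.018). Against the first-run 6m libraries neither Klhl3 (adjusted p = 0.21) nor Klhl28 (adjusted p = 0.068) was called. In all 3 genes replicates 3, 5 and 7 were the lowest old mice. Within the young range lay replicate 4 in Trim14, replicates 4, 6 and 8 in Klhl3 and replicate 8 in Klhl28.

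Trim65, a ligase for the RNA sensor MDA5, was between 2.92 and 4.28 CPM at 6m (median 3.88) and between 1.25 and 2.91 CPM at 28m (median 1.80), and the groups did not overlap (log2 -0.91, SE 0.17, adjusted p = 0.0011). Trim56, which acts in antiviral defence, fell from 5.11 ± 0.40 to 2.79 ± 0.86 CPM (log2 -0.87, SE 0.16, adjusted p = 0.00097), again without overlap. Klhl24, which controls intermediate filaments and is mutated in a skin and heart disease, fell without overlap. It was between 177 and 198 CPM at 6m and between 45.6 and 173 CPM at 28m (log2 -0.76, SE 0.22, adjusted p = 0.010, and 0.060 against the first-run 6m libraries). Fbxl17, which removes wrongly paired BTB proteins, KLHL proteins among them, fell from 164 ± 9.35 to 112 ± 20.3 CPM (log2 -0.55, SE 0.10, adjusted p = 0.0011), and all old mice lay below the young ones.

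**Figure D2:**
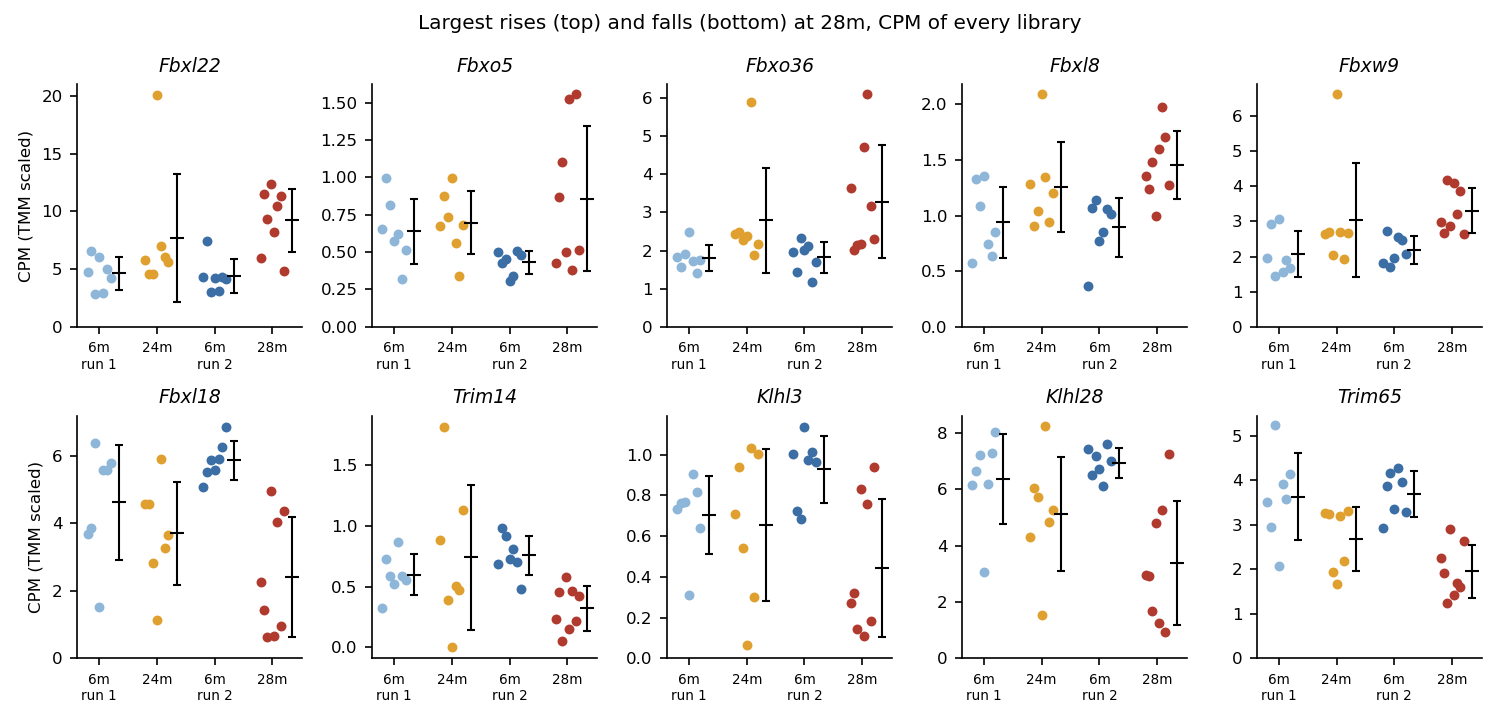
TMM-scaled CPM (y axis, starting at 0) of the 5 largest rises and the 5 largest falls at 28m in every library of the 4 groups (x axis), with points for mice and bars for the mean and SD. Fbxl18 at 28m spreads from 0.623 to 4.94 CPM below a narrow 6m group, and 24m replicate 4 stands apart in Fbxl22 at 20.1 CPM.

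The old mice differed from each other in how far members had moved. The median over the 35 lower members of the log2 difference from the 6m mean was -1.01 in 28m replicate 7 and -0.71 in replicate 5, and -0.16 in replicate 8 and -0.20 in replicate 4. Of the 35, 34 were below every 6m mouse in replicate 7 and 16 in replicate 8. The library totals of these were 27179445 and 23679797 counts. These values describe the mice, since the same mice chose the members. Spread was wider at 28m, with a median SD of log2 CPM over tested members of 0.29 at 28m and 0.14 at 6m, and the SD was the larger at 28m in 102 of 115 members (88.7%, against 87.6% of all genes).

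The 9 tested members of the striated muscle list were called in both directions, with 3 lower (Trim55, Klhl34 and Klhl30) and 1 higher (Fbxl22, above), or 33.3% and 11.1% of the list beside 22.9% and 24.3% of all genes. Trim55 (MuRF2, which binds titin at the M-band) was between 47.3 and 54.5 CPM at 6m (median 49.3) and between 16.7 and 45.5 CPM at 28m (median 32.9). No old mouse reached the young range, and replicates 3, 5 and 7 were lowest with values up to 21.7 CPM (log2 -0.66, SE 0.18, adjusted p = 0.0086 by edgeR). Its relative Trim54 (MuRF3) was 486 ± 42.6 CPM at 6m and 562 ± 106 CPM at 28m (log2 0.22, SE 0.11, adjusted p = 0.12) and did not pass. Trim72 did not either (log2 0.10, SE 0.14, adjusted p = 0.56).

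Klhl34 was between 7.93 and 19.7 CPM at 6m (median 14.3) and between 3.12 and 13.8 CPM at 28m (median 8.68), with 4 of 8 old mice below all young ones. Its call (log2 -0.69, SE 0.26, adjusted p = 0.038) was lost when any 1 of 28m replicates 2, 3 and 5 or 6m replicates 1, 2, 4, 6 and 7 was left out (adjusted p of at most 0.086). Klhl30 was between 112 and 174 CPM (median 142) and between 65.3 and 156 CPM (median 108), also with 4 of 8 below. That call (log2 -0.40, SE 0.14, adjusted p = 0.030) was lost when any 1 of 28m replicates 1, 2 and 5 or 6m replicates 2, 3 and 5 was left out (adjusted p of at most 0.066). The remaining Klhl members of the list did not pass, with log2 values of -0.45 (SE 0.27, adjusted p = 0.18) for Klhl33, -0.41 (SE 0.28, adjusted p = 0.24) for Klhl38, of whose exonic bases 65.4% overlap Gm15943, and -0.14 (SE 0.12, adjusted p = 0.33) for Klhl31. Against the first-run 6m libraries, Fbxl22 was the 1 gene of this list that was called (adjusted p = 0.010).

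**Figure D3:**
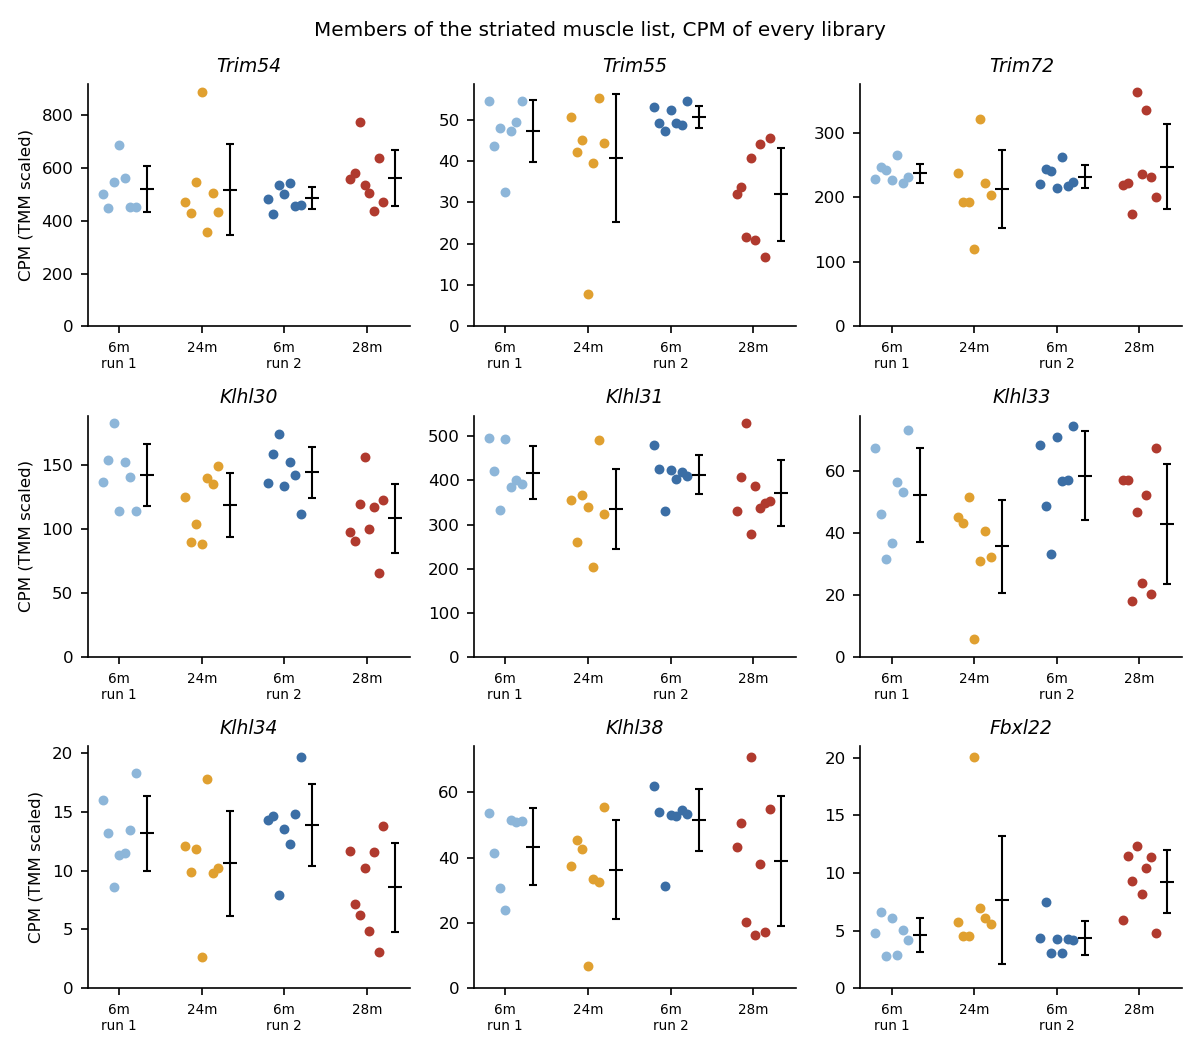
TMM-scaled CPM (y axis, starting at 0) of the 9 tested members of the striated muscle list in every library of the 4 groups (x axis), with points for mice and bars for the mean and SD. Trim55, Klhl33, Klhl34 and Klhl38 each have 24m replicate 4 far below its group, and Trim55 at 28m lies wholly below its 6m group.

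Among the interferon-induced or antiviral TRIM genes, 11 of 14 listed in the table were tested, and 3 were lower (Trim14, Trim56 and Trim25) and 1 was higher (Trim12a), or 27.3% and 9.09% beside 22.9% and 24.3% of all genes. Against the first-run 6m libraries the 3 falls were not called (adjusted p = 0.067, 0.077 and 0.070), and Trim12a was (adjusted p = 0.042). Trim25, which activates the RNA sensor RIG-I, fell from 20.7 ± 2.37 to 16.5 ± 2.71 CPM (log2 -0.32, SE 0.11, adjusted p = 0.020). Trim56 and Trim25 did not hold the interferon motif shown above, and Trim14 had no window. Of the 7 that held it, Trim12a passed the test, and the log2 values of the other 6 lay between -0.15 (Trim26, SE 0.075, adjusted p = 0.10) and 0.36 (Trim30d, SE 0.20, adjusted p = 0.14). Trim30a and Trim30d, like Trim12a and Trim12c, are related genes, and how reads were divided between them is uncertain. The TIF1 genes code for chromatin readers that act as cofactors of transcription factors, and Trim24 (log2 -0.35, SE 0.084, adjusted p = 0.0039) and Trim33 (log2 -0.55, SE 0.12, adjusted p = 0.0021) were lower, while Trim28 gave 0.05 (SE 0.069, adjusted p = 0.58). With the trend of length and GC content removed, Trim24 was not called (log2 0.00, adjusted p = 0.998) and Trim33 was at -0.22.

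Of the F-box genes of the sugar-binding branch, a grouping by sequence in which not every protein is known to bind sugars, Fbxo44 and Fbxo17 were higher (log2 0.37, SE 0.10, adjusted p = 0.0080 for Fbxo17) and Fbxo6 did not pass (log2 0.22, SE 0.10, adjusted p = 0.083). Neither Fbxo44 nor Fbxo17 passed against the first-run 6m libraries (adjusted p = 0.069 and 0.095). These are 2 of 3 tested, where 24.3% of all genes were higher. Of 4 KLHL genes that act in mitosis, 2 were lower, where 22.9% of all genes were. They were Klhl21 (log2 -0.39, SE 0.13, adjusted p = 0.021) and Klhl13 (log2 -0.48, SE 0.17, adjusted p = 0.027). Klhl21 shares 20.5% of its exonic bases with Gm9768, and how reads were divided is uncertain. Both calls were lost against the first-run 6m libraries (adjusted p = 0.053 and 0.10). The Klhl13 call was also lost without 28m replicate 7 or 6m replicate 2 or 6 (adjusted p of at most 0.068). Of the pair that marks WNK kinases, Klhl3 was lower and Klhl2 gave 0.05 (SE 0.14, adjusted p = 0.77). Fbxw11 was lower (log2 -0.41, SE 0.12, adjusted p = 0.013). The other abundant F-box genes gave log2 values of -0.34 for Fbxo31 (SE 0.12, adjusted p = 0.030, lost without 28m replicate 3 or 5 or 6m replicate 3, 4 or 5, adjusted p of at most 0.061), -0.20 for Fbxw5 (SE 0.092, adjusted p = 0.082) and -0.21 for Fbxo3 (SE 0.087, adjusted p = 0.059).

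The cullin-RING machinery that F-box and KLHL proteins dock on was described by a list of 38 genes outside the members, all tested. Of these 15 were higher (39.5%, against 24.3% of all genes) and 6 lower (15.8%, against 22.9%) at 28m. Against the first-run 6m libraries 3 were higher (7.89%, against 12% of all genes) and 4 lower (10.5%, against 11.0%). The genes named next were ranked by the fit against the second-run libraries, and not all of them were called against the first-run ones. The largest rises were those of Tceb2 (elongin B), with a log2 fold change of 0.85 (SE 0.16, adjusted p = 0.00096), Nedd8, the ubiquitin-like protein that activates cullins, with 0.66 (SE 0.16, adjusted p = 0.0040), and Skp1a, the adaptor between F-box proteins and cullin 1, with 0.65 (SE 0.13, adjusted p = 0.0018). With the trend of length and GC content removed they were at 0.47, 0.18 (adjusted p = 0.098, not called) and 0.26. The largest falls were those of Cand2, a muscle relative of the receptor exchange factor Cand1, with -0.68 (SE 0.19, adjusted p = 0.0085), Cul3, the scaffold of the KLHL ligases, with -0.61 (SE 0.15, adjusted p = 0.0053), and Dcun1d2, a Nedd8 ligase, with -0.46 (SE 0.086, adjusted p = 0.0011). Skp1a went from 183 ± 7.43 to 286 ± 70.5 CPM and Cul3 from 352 ± 21.1 to 231 ± 66.0 CPM. Cul1 did not pass (log2 -0.14, SE 0.097, adjusted p = 0.24).

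Fold changes at 28m ran with gene length. Across 12871 genes with a length, Spearman's rho between exonic length and log2 fold change was -0.54, and across 114 members it was -0.44, with genes of the same libraries that are not independent. Within families it was -0.75 for Fbxl, -0.59 for Fbxo, -0.53 for Trim, 0.14 for Fbxw and 0.01 for Klhl. Of the 57 shorter members 13 were lower and 14 higher, and of the 57 longer ones 22 were lower and 3 higher. The median exonic length was 5645 bases in the lower and 3024 bases in the higher members, beside 7021 and 2746 bases over all genes called.

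**Figure D4:**
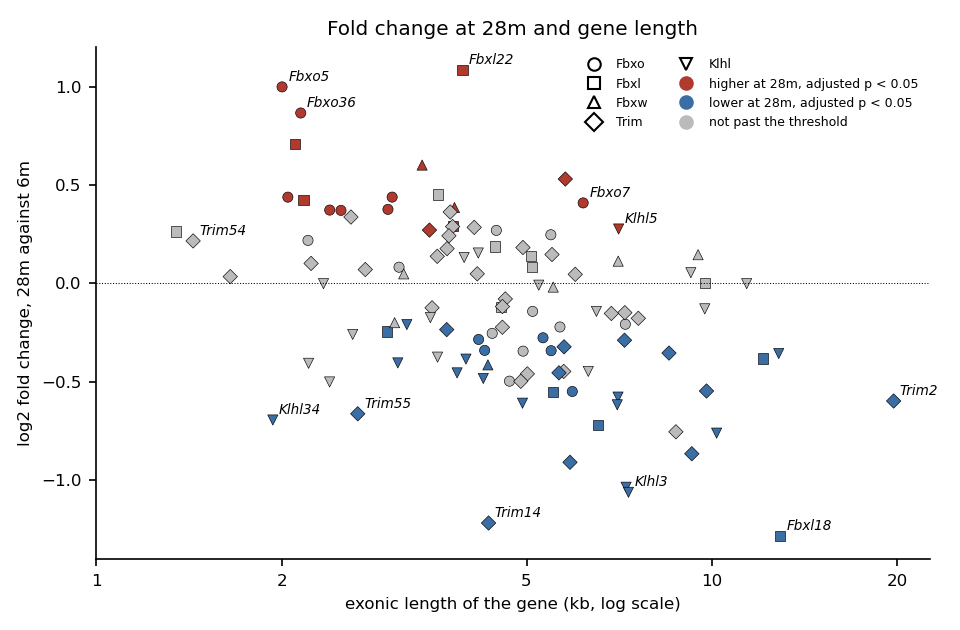
Log2 fold change at 28m against 6m (y axis) against exonic length in kb (x axis, log scale) for the 114 tested members with a length. Marker shapes give the family and colours the test result, as in the legend. Higher members (red) cluster at shorter lengths, with a median of 3024 bases, and lower ones (blue) at longer lengths, with a median of 5645 bases.

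With a smooth trend of length and GC content removed from every library, 26 members were lower (against 15.4% of all genes) and 19 higher (against 21.9%), and 23 of the 35 lower and 10 of the 17 higher calls were shared with the fit above. The Klhl family kept a median of -0.28, with 10 of 29 lower and 2 higher, whereas Fbxw genes counted 1 lower and 5 higher of 8 and Trim genes 7 lower and 3 higher of 39. Fbxl22 (log2 1.11, adjusted p = 0.0014), Fbxl18 (-0.87, adjusted p = 0.019), Trim65 (-0.68, adjusted p = 0.0019) and Trim55 (-0.84, adjusted p = 0.0090) remained. Trim56 (-0.49), Klhl24 (-0.48), Fbxl7 (-0.45), Trim33 (-0.22) and Fbxl6 (0.22) remained at smaller size. Calls were lost for Fbxo36 (0.56, adjusted p = 0.097), Fbxl8 (0.50, adjusted p = 0.064), Fbxo4 (0.13, adjusted p = 0.43), Klhl3 (-0.80, adjusted p = 0.060), Klhl21 (-0.28, adjusted p = 0.10), Trim25 (-0.13, adjusted p = 0.22), Fbxo17 (0.21, adjusted p = 0.12) and Fbxo31 (-0.10, adjusted p = 0.47). Of the machinery, 6 were lower and 11 higher, and Kbtbd10, which is not on that list, lost its call (0.13, adjusted p = 0.41). Trim54, Trim72, Klhl31, Fbxo3 and Trim26, none of them called, were among the members that changed sign, and negative values went from 67 to 57 of the 115. The cause of the trend was not tested.

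At 24m, no member passed the test. Of 115 tested members, 0 had an adjusted p below 0.05 by edgeR (against 0.084% of 13103 genes, lowest adjusted p of a member 0.17) and 11 had an unadjusted p below 0.05 (against 11.8% of all genes). DESeq2 called 1 member, Klhl4 (log2 -0.65, adjusted p = 0.018, against 1.13% of all genes). Klhl4 was between 2.27 and 3.8 CPM at 6m (median 2.65) and between 1.36 and 2.11 CPM at 24m (median 1.82, n = 7 each), so that all 24m mice lay below all 6m mice, as in 0.252% of all genes, and no member lay wholly above (0.343% of all genes). Its log2 fold change was -0.64 (SE 0.16) by edgeR with an adjusted p of 0.17, and at 28m it was -0.37 (SE 0.24, adjusted p = 0.21), or -0.57 with the length and GC trend removed, which passed (adjusted p = 0.038).

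Klhl5 and Fbxw17 had the next smallest p at 24m, with log2 values of 0.61 (SE 0.17, unadjusted p = 0.0027, adjusted p = 0.22, by edgeR) and 0.63 (SE 0.20, unadjusted p = 0.0067, adjusted p = 0.27). Both were called higher at 28m, with 0.28 (SE 0.11, adjusted p = 0.049) and 0.39 (SE 0.11, adjusted p = 0.013), although the Klhl5 call held in 4 of the 15 fits without 1 mouse (adjusted p of at most 0.093 in the others). Trim24 gave -0.33 (SE 0.11, adjusted p = 0.28) and Klhl21 -0.35 (SE 0.12, adjusted p = 0.33) at 24m, beside -0.35 and -0.39 at 28m. The 24m and 28m values come from different control libraries of the same 6m mice.

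**Figure D5:**
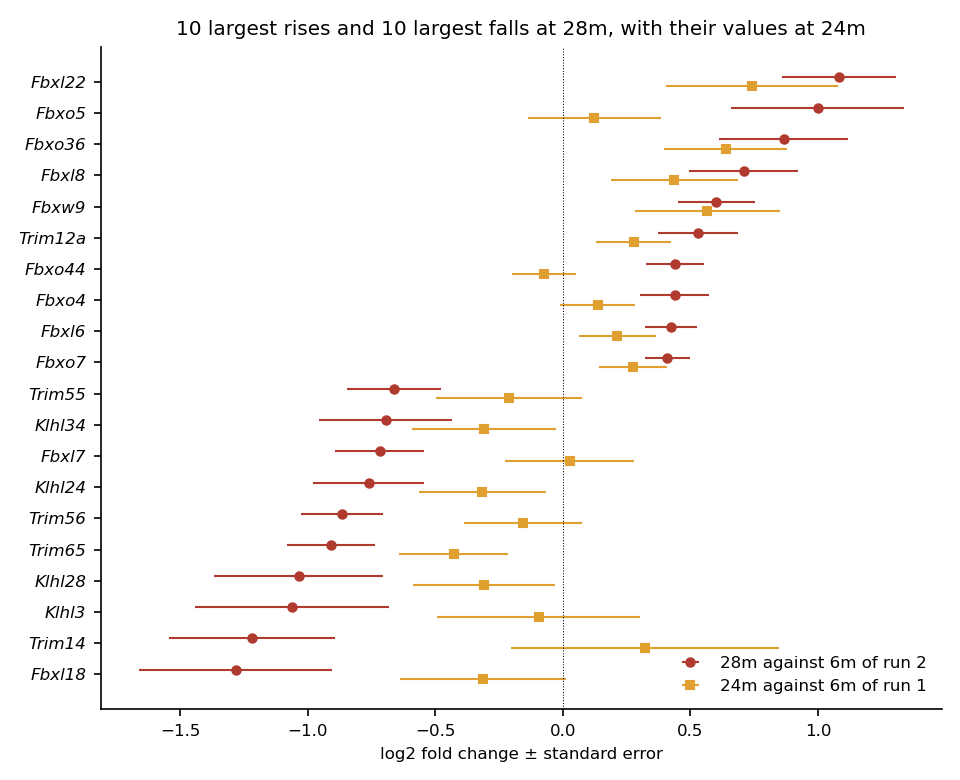
Log2 fold change with its standard error (x axis) of the 10 largest rises and 10 largest falls at 28m (y axis), for 28m against the 6m libraries of the second run (circles) and 24m against those of the first run (squares). The genes were chosen by the 28m values, so the 28m points lie far from 0 by choice, and none of the 24m points had an adjusted p below 0.05.

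The 24m values of these 20 genes were all smaller in size than the 28m values by which the genes had been chosen. Fbxl22 gave 0.74 (SE 0.34, unadjusted p = 0.044, adjusted p = 0.42 by edgeR), with 1 mouse, replicate 4, at 20.1 CPM and the others between 4.56 and 6.98 CPM. Trim55 gave -0.21 (SE 0.29), with replicate 4 at 7.74 CPM and the others between 39.6 and 55.2 CPM. Over the 35 members lower at 28m, the median shift from the 6m mean was -0.85 in 24m replicate 4 and between -0.12 and -0.01 in the other 6 mice. Over the 17 higher members it was 0.65 in replicate 4 and between 0.03 and 0.18 in the others.

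The difference between the age effects was tested in a model of all 29 libraries. Of 120 members tested, 0 had an adjusted p below 0.05 by edgeR (against 0.0% of 13455 genes) or by DESeq2, and 18 had an unadjusted p below 0.05 (against 12% of all genes). The smallest p belonged to Trim2, a ligase for neurofilament light chain, with a difference of -0.81 on the log2 scale (SE 0.25, unadjusted p = 0.0035). Next came Fbxo44 with 0.53 (SE 0.17), Fbxo17 with 0.45 (SE 0.14), Trim68 with 0.33 (SE 0.11) and Trim37, a ligase of centrosomes and peroxisomes, with -0.42 (SE 0.15), all 5 with an adjusted p of 0.40. Trim2 was between 2.51 and 3.41 CPM at 6m and 1.35 and 2.87 CPM at 28m in the second run, and between 1.4 and 3.71 CPM at 6m and 2.4 and 4.18 CPM at 24m in the first. Without 24m replicate 4, 11 of 121 members were called (against 12.3% of all genes). The 28m effect lay below the 24m effect in 6 (Trim14, Fbxl7, Trim2, Klhl29, Klhl18 and Trim37), or 4.96% against 3.36% of all genes. It lay above in 5 (Trim68, Fbxo22, Fbxo25, Fbxo17 and Fbxo44), or 4.13% against 8.92%. Each effect was measured against its own 6m libraries, and this fit treated the 2 libraries of a 6m mouse as independent.

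The paired libraries of the same 7 mice at 6m were compared between runs, which differ in library preparation and in sequencing. Of 113 members tested, 0 differed between runs at an adjusted p of 0.05 by edgeR (against 0.0% of 12884 genes), and 2 had an unadjusted p below 0.05 (against 2.77%), Fbxo5 and Trim68. That fit did not pair the libraries of a mouse. With the mouse as a block in edgeR, 10 members had an unadjusted p below 0.05 (against 1052 of 12884 genes), and 0 passed the adjusted threshold. In the fit without pairing, Fbxo5 was lower in the second run by log2 -0.58 (unadjusted p = 0.024) and Trim68 by -0.19 (unadjusted p = 0.026), followed by Fbxo4 with -0.23 (unadjusted p = 0.061), all with an adjusted p of 0.88. These 3 members were called higher at 28m against the second run, and none of them passed against the first (adjusted p = 0.36, 0.45 and 0.17).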

How the data were processed

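Poly-A libraries (NEBNext Ultra II) of tibialis anterior RNA were sequenced single-end. Per the labels, the submitters' processing notes name bcl2fastq 2.20, STAR 2.5.4b with mm10, R 3.5.1 and DESeq2 1.22.2. The authors deposited whole-number read counts per gene symbol for all 29 libraries, without normalization, and 0 columns were without a sample. The strand setting of the counting is not given in the sources used here. The series text gives the group sizes at 24m and 28m the other way round from the sample labels, which were used, and the labels state less input RNA than the methods do. Litter, cage and day of preparation were not used here.

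Counts were analysed with edgeR 4.0.16, limma 3.58.1 and DESeq2 1.42.0 (R 4.3.3). Low counts were filtered with filterByExpr, libraries were scaled by TMM, and groups were compared with glmQLFit and glmQLFTest, adjusting p over all genes tested. Standard errors were taken from the log2 fold change and its F statistic. Intervals of counting error were not used, and 3 counts were taken as the floor. Exonic length and position came from GENCODE vM21 (GRCm38), where 20202 symbols matched directly, 1897 matched through a synonym and 438 did not match. Promoters came from RefSeq (GRCm38.p6). The scripts recovered known changes when tested on simulated data. Plots were made in Python 3.11.15 (matplotlib 3.10.9).

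Members and gene lists were chosen with earlier results of these data known. Genes were named by rule. They were the 10 largest rises and 10 largest falls among called members at 28m, the 5 members with the smallest p at 24m and for the difference of age effects, the 3 with the smallest p between runs, the 2 most abundant of each family per kb, the tested striated muscle list, and the 3 largest rises and falls of the cullin-RING machinery. Results for 1 gene and for 1 list that the rule covers are not reported here. Other genes are named as the called members of a short list, or were chosen after their values were seen. The alternatives were DESeq2, its size factors in edgeR, no filter, at least 10 counts in every library, removal of a trend of length and GC content (a spline with 4 degrees of freedom), the 6m libraries of the other run, leaving out each mouse, and the mouse as a block. The 6m numbers mark the same mouse in both runs, and the deviations of its libraries from the group means correlated across genes between 0.216 and 0.836 in all 7 mice. At the depth of these libraries, the members that the filter removed at 28m reached at most 48 counts in any library.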

Additional observations from a re-analysis of the deposited data

Results flagged for a closer look

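Single mice were set against the others of their group for 92 pairs of a group and a value, and 14 stood apart by Dixon's ratio, where chance gives about 1 in 20. The 24m replicate 4 accounted for 7 of them. Its Fbxl22 level was 20.09 CPM (the other 6 mice 4.563 to 6.984) and its Fbxw9 level 6.64 CPM (1.925 to 2.693). It was low for Klhl28 at 1.527 CPM (4.303 to 8.237), Trim55 at 7.736 CPM (39.55 to 55.22), Klhl33 at 5.976 CPM (31 to 51.59), Klhl34 at 2.689 CPM (9.838 to 17.79) and Klhl38 at 6.806 CPM (32.64 to 55.46).

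The first-run library of 6m replicate 4 was low for Fbxl18 at 1.508 CPM (3.666 to 6.37), Klhl3 at 0.312 CPM (0.6414 to 0.9077) and Klhl28 at 3.068 CPM (6.151 to 8.039). The second library of that mouse did not stand apart in these genes. In the second run, 6m replicate 2 was high for Fbxl22 at 7.46 CPM (3.023 to 4.331), 6m replicate 1 was low for Fbxl8 at 0.3647 CPM (0.775 to 1.141) and 6m replicate 3 was low for Klhl38 at 31.37 CPM (52.84 to 62.05). The Fbxo36 level of 24m replicate 5 was 5.888 CPM (1.882 to 2.494). No family sum stood apart by this rule.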

How the results depend on the processing

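The 35 lower and 17 higher members at 28m became 11 and 11 with the first-run 6m libraries as controls, while the share of all genes called fell from 22.9% and 24.3% to 11.0% and 12%, and 25 and 13 when the first library of 6m replicate 4 was left out as well, a choice made after seeing the data. Under the other alternatives the lower count lay between 26 and 38 and the higher count between 15 and 19, and with single mice left out between 27 and 40 and between 16 and 18. At 24m, 0 members were called by edgeR, also with single mice left out, and 1 by DESeq2. For the difference of age effects the count of 0 became 11 without 24m replicate 4, so that leaving out mice gave between 0 and 11. Between the 6m runs it was 0 throughout. The mouse as a replicate block gave 0 called members for the difference (24 at an unadjusted p below 0.05, lowest adjusted p 0.095, consensus correlation of a mouse's libraries 0.74) and 0 between the runs (10 at an unadjusted p below 0.05, lowest adjusted p 0.50), as without the block. The block was not used in the fit without 24m replicate 4, so it does not bear on the 11 members called there. Among the genes followed under every alternative, signs turned, without a call, with the length and GC trend removed for Fbxo3 (0.0089), Klhl31 (0.064), Trim54 (-0.14) and Trim72 (-0.080). Trim24, called at -0.35 before that trend was removed, went to 0.00 and lost its call. Of the values of single genes and the counts of single families under an alternative, 1087 kept direction and side of the threshold or stayed within 1.5 times, 44 family counts moved further, 55 genes' values lost a call and 8 gained one. The cause of these changes was not tested. Members removed by the filter on low counts were not tested by edgeR with that filter, and DESeq2 calls on them rested on few counts.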
